A study of Homo sapiens with 12 samples.

Results

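The genes described here are 9 target genes of the transcription factor NRF2, read in SCC-15 cells with a control hairpin or with 1 of 3 hairpins against FMOD. They were chosen by name: SLC7A11, GCLC, GCLM, TXNRD1, SRXN1, NQO1, AKR1C1, AKR1B10 and HMOX1. All 9 were found once among the 61044 identifiers of the count table, and all 9 passed the filter on low counts that left 17532 genes. SCC-15 is a human cell line from a squamous carcinoma of the mouth. The control cells carried a negative-control short hairpin RNA (NC), and the other cells carried shRNA1, shRNA2 or shRNA3 against FMOD, the gene of the matrix proteoglycan fibromodulin. Each of the 4 groups had 3 libraries of total RNA, harvested after 48 hours in ordinary medium, and every comparison with NC used the same 3 NC libraries. The vector, its promoter, and whether a line is 1 clone are not given in the sources used here, nor whether the libraries of a group came from separate cultures. P-values therefore measure the spread between libraries, which may be technical.

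NRF2, encoded by NFE2L2, is kept low by KEAP1, which hands it to a CUL3 ubiquitin ligase for breakdown. When oxidants or electrophiles modify KEAP1, NRF2 protein accumulates, pairs with a small MAF protein and binds antioxidant response elements in its target genes, where BACH1 acts as a repressor. Its targets import cystine, make glutathione, regenerate thioredoxin and peroxiredoxin, and reduce quinones and carbonyls. Squamous cancers often carry alterations of this pathway. Because the pathway is controlled largely through the stability of the NRF2 protein, RNA counts do not report NRF2 activity itself.

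The sequence shared by such elements is the core TGACNNNGC, and the stretches below are shown because they are the matches lying wholly before a start site of a member. RefSeq promoter sequences (GRCh38.p14, 250 bases before to 50 after the start) were matched for 6 members with 7 start sites. SLC7A11, HMOX1 and AKR1B10 had no entry. The core, searched on both strands, was present in 3 of these 7 windows, those of GCLM and TXNRD1, against 4687 of 35116 promoters in the table (13.3%). The core is in capitals, printed on the strand that reads it 5′ to 3′.
GCLM, chr1:93909446-93909474, plus strand, opposite to the gene: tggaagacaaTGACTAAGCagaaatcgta
TXNRD1, first start, chr12:104215670-104215698, plus strand, as the gene: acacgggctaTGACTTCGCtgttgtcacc
TXNRD1, second start, chr12:104286920-104286948, minus strand, opposite to the gene: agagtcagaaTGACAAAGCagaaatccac
The core of GCLM lay 34 to 26 bases before its start, that of the first TXNRD1 start 99 to 91 bases before it, and that of the second start 102 to 94 bases before it. A further match at the first TXNRD1 start begins 8 bases before it and runs into the transcript. The AP-1 motif (TGAGTCA or TGACTCA), which can overlap such elements, had 0 matches in the 7 windows. A match is a description of the letters, and its absence in so short a window says nothing about binding.

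The libraries held between 17286934 and 19567192 counts after rounding. FMOD itself, the targeted gene, had 2, 2 and 3 counts in the NC libraries and 0 in all 9 shRNA libraries, too few for a fold change. All 8 squamous epithelial markers were detected in every group, with a summed level of 2015 to 2181 CPM (counts scaled to each library's effective total) in NC and 1224 to 2011 in the shRNA libraries. Of these 8, KRT14, KRT6A and KRT17 rose and KRT5 and CDH1 fell with all 3 shRNAs. Log2 fold changes with shRNA1, shRNA2 and shRNA3 were 2.87, 1.69 and 4.30 for KRT14 and -5.56, -3.65 and -3.75 for KRT5. Summed fibroblast markers were 56.6 to 59.6 CPM in NC, 15.5 to 21.0 with shRNA1, 44.2 to 48.2 with shRNA2 and 32.6 to 86.5 with shRNA3, with 5 of 6 detected in NC, shRNA1 and shRNA3 and 3 of 6 in shRNA2. DCN was at 0 in NC and shRNA2, and LUM at 0 in shRNA1 and shRNA3. COL1A1 made up most of these sums, with means of 41.7 CPM in NC and 17.3, 44.6 and 65.8 with shRNA1, shRNA2 and shRNA3. PDGFRB fell from a mean of 10.7 CPM in NC to 0.76, 1.10 and 0.73, and COL1A2 from 4.80 to 0.069, 0 and 0.024. Endothelial markers, all 3 detected, summed to 17.6 to 23.0 CPM in NC and 3.88 to 13.2 in the shRNA groups. They moved apart: PECAM1 rose from a mean of 0.13 CPM in NC to 2.09 to 9.68 in the shRNA libraries. CDH5 fell from 17.3 to 0.52 to 2.76, and VWF from 2.02 to 0.074 to 0.84. Leukocyte markers summed to 4.10 to 5.07 CPM in NC and 0.72 to 2.49 in the shRNA groups, with CD14 below NC in all 9 shRNA libraries. The part of these marker differences in the results below was not tested.

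NC libraries correlated at only 0.815 to 0.840 with shRNA libraries (27 pairs), while shRNA1 and shRNA2 libraries correlated at 0.968 to 0.978 with each other. Every shRNA library thus stood far from the only control, and why was not tested. This distance bears on every change against NC. A feature of the shRNA3 group also touches every result that follows. Its libraries 1 and 2 correlated at 0.993 with each other, but at 0.914 and 0.918 with library 3, while library 3 correlated at 0.978 to 0.986 with the shRNA1 and shRNA2 libraries. TMM scaling factors, which correct totals for composition, were 0.771 and 0.794 in libraries 1 and 2 and 1.06 in library 3. The labels do not explain this split. Log2 changes of named NRF2 pathway genes with shRNA3 against NC are therefore given over all 3 libraries, without library 3 (libraries 1 and 2 only), and with library 3 alone, where that lone library is assumed to vary like the other groups.

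Across the 9 targets there was no common direction. NQO1, SLC7A11 and AKR1C1 rose with all 3 shRNAs, and SRXN1 lay below every NC library in all 9 shRNA libraries. TXNRD1 rose with shRNA1 and fell with shRNA3. Of the 3 shRNAs, GCLM and AKR1B10 passed only with shRNA3, GCLM as lower and AKR1B10 as higher, and GCLC and HMOX1 passed with no shRNA. In edgeR's quasi-likelihood test, adjusted over all genes by Benjamini-Hochberg with a threshold of 0.05, 4 members were higher and 0 lower with shRNA1, where 57.4% of all genes passed (26.8% higher, 30.6% lower). With shRNA2, 3 members were higher and 1 lower, where 53% of all genes passed (24.6% higher, 28.4% lower). With shRNA3, 4 members were higher and 3 lower, where 53.9% of all genes passed (26.4% higher, 27.6% lower). Fewer cells of a type and less RNA per cell cannot be told apart in these bulk libraries.

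In either direction 4 of 9 members passed with shRNA1 and 4 of 9 with shRNA2, smaller shares than over all genes, and 7 of 9 with shRNA3, a larger share. None of these differences in share was tested. The members' median log2 fold change was 0.63 with shRNA1, 0.07 with shRNA2 and -0.18 with shRNA3, beside -0.02, -0.05 and -0.03 over all 17532 genes. For the mean of the 3 shRNAs, 4 members were higher and 1 lower, where 60% of all genes passed (27.9% higher, 32.2% lower), and the median was -0.05 beside -0.03 over all genes. Passing higher with every shRNA held for 3 of 9 members, against 16% of all genes, and passing lower with every shRNA for 0 of 9, against 19.7%. All 9 shRNA libraries lay above all 3 NC libraries for 3 members (19% of all genes) and below them for 1 (25.8%).

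**Figure D1:**
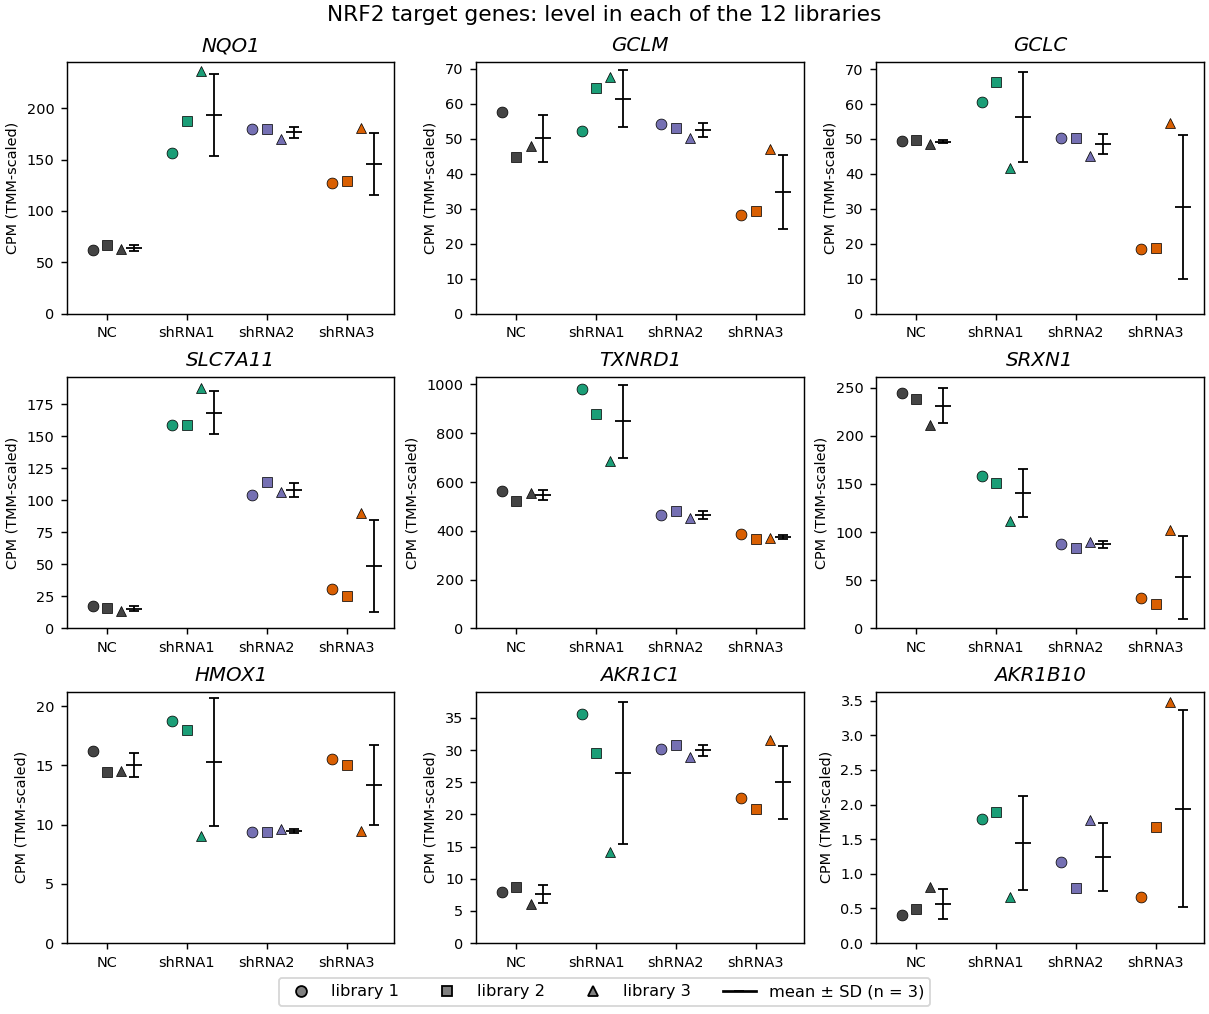
Level of each of the 9 NRF2 target genes (vertical axis, TMM-scaled CPM, starting at 0) in every library of the 4 groups. Points are libraries 1 to 3 and bars show mean ± SD (n = 3). NQO1, SLC7A11 and AKR1C1 lie above NC in all 9 shRNA libraries, SRXN1 lies below it in all 9, and shRNA3 library 3 stands apart from libraries 1 and 2 for GCLC, SLC7A11 and SRXN1.

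Among the genes of glutathione synthesis, the cystine importer rose with every shRNA. SLC7A11 (ENSG00000151012, chromosome 4, 138164097 to 138242349, minus strand, GRCh38) encodes the light chain of the cystine-glutamate antiporter, which supplies the cysteine for glutathione. It was read at 17.1, 15.9 and 13.3 CPM in NC, at 159, 159 and 188 CPM with shRNA1, at 104, 114 and 106 CPM with shRNA2, and at 30.9, 24.9 and 90.0 CPM with shRNA3. No shRNA library overlapped NC, and the 3 shRNAs were ordered, shRNA1 highest, with shRNA3 libraries 1 and 2 lowest. The rise was 10.9-fold with shRNA1 (log2 3.45, SE 0.41, adjusted p = 3.4e-05, edgeR), 6.996-fold with shRNA2 (log2 2.81, SE 0.40, adjusted p = 0.00013) and 3.15-fold with shRNA3 (log2 1.66, SE 0.38, adjusted p = 0.0036). Without shRNA3 library 3 the log2 change was 0.85 (adjusted p = 4.9e-05), and with library 3 alone it was 2.57 (adjusted p = 1.2e-08). The differences of shRNA1 from shRNA2 (log2 0.64, adjusted p = 0.29) and of shRNA2 from shRNA3 (1.15, adjusted p = 0.071) did not pass. Between the outer pair, shRNA1 exceeded shRNA3 by 1.79 on the log2 scale (adjusted p = 0.0094), and by 0.89 (adjusted p = 0.0052) with library 3 alone. The antisense transcript SLC7A11-AS1 shares 8.08% of the 50-base stretches of SLC7A11. It had between 1 and 35 counts in any library.

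GCLC (ENSG00000001084, chromosome 6, 53497341 to 53616970, minus strand), the catalytic subunit of glutamate-cysteine ligase, did not pass with any shRNA. Its levels were 49.4, 49.6 and 48.7 CPM in NC, 60.6, 66.3 and 41.7 CPM with shRNA1, and 50.1, 50.4 and 45.1 CPM with shRNA2. In the shRNA3 group they were 18.6, 18.7 and 54.4 CPM. Libraries 1 and 2 of shRNA3 thus lay below all other libraries, while library 3 lay above NC. The log2 change with shRNA3 was -0.68 (SE 0.36, adjusted p = 0.13) over the 3 libraries, -1.40 (adjusted p = 2.6e-06) without library 3, and 0.17 (adjusted p = 0.47) with library 3 alone. With shRNA1 and shRNA2 it was 0.19 (SE 0.35, adjusted p = 0.67) and -0.02 (SE 0.35, adjusted p = 0.97).

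GCLM (ENSG00000023909, chromosome 1, 93885205 to 93909456, minus strand) encodes the modifier subunit, which raises the catalytic efficiency of the ligase. It was at 57.6, 44.9 and 47.8 CPM in NC, 52.2, 64.4 and 67.8 CPM with shRNA1, 54.2, 53.1 and 50.3 CPM with shRNA2, and 28.2, 29.2 and 47.0 CPM with shRNA3. The shRNA1 and shRNA2 ranges overlapped NC, and so did shRNA3 library 3. GCLM passed as lower with shRNA3 (log2 -0.52, SE 0.20, adjusted p = 0.046), and the log2 changes with shRNA1 and shRNA2 were 0.29 (adjusted p = 0.23) and 0.07 (adjusted p = 0.80). Of the 12 fits that each left out 1 library, the shRNA3 call was kept only in the fit without library 3 of shRNA3 (log2 -0.81, adjusted p = 9.7e-05), and in the other 11 the adjusted p lay between 0.051 and 0.21. With library 3 alone the log2 change was -0.06 (adjusted p = 0.78).

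In the thioredoxin system the log2 changes of the 2 members had opposite signs with shRNA1 only, where that of SRXN1 did not pass. TXNRD1 (ENSG00000198431, chromosome 12, 104215779 to 104350305, plus strand), the cytosolic thioredoxin reductase, was at 563, 521 and 555 CPM in NC. It was at 981, 880.0 and 685 CPM with shRNA1, 463, 483 and 452 CPM with shRNA2, and 386, 367 and 370.3 CPM with shRNA3. The shRNA1 libraries all lay above NC, and the libraries of shRNA2 and shRNA3 all lay below it. TXNRD1 rose with shRNA1 by 0.63 on the log2 scale (SE 0.14, adjusted p = 0.0028, edgeR) and fell with shRNA3 by 0.55 (SE 0.14, adjusted p = 0.0071). The shRNA2 value, -0.23 (SE 0.14, adjusted p = 0.20), did not pass. The shRNA3 value was -0.54 without library 3 and -0.53 with library 3 alone, so TXNRD1 does not show the split within that group. The difference between shRNA1 and shRNA2 was 0.87 (adjusted p = 0.0051), and that between shRNA1 and shRNA3 was 1.18 (adjusted p = 0.0021).

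SRXN1 (ENSG00000271303, chromosome 20, 646615 to 653370, minus strand) encodes sulfiredoxin, which repairs overoxidised peroxiredoxins. NC libraries held 245, 238 and 211 CPM. With shRNA1 the levels were 158, 151 and 112 CPM, with shRNA2 87.8, 83.7 and 89.95 CPM, and with shRNA3 31.9, 24.9 and 102 CPM. Every shRNA library was below every NC library. SRXN1 fell 2.66-fold with shRNA2 (log2 -1.41, SE 0.41, adjusted p = 0.013) and 4.35-fold with shRNA3 (log2 -2.12, SE 0.42, adjusted p = 0.0014). The shRNA1 value, log2 -0.72 (SE 0.41), did not pass at adjusted p = 0.15. Because the 4 groups share 1 estimate of the spread, the wide shRNA3 group enters that test too, and without shRNA3 library 3 the shRNA1 value was -0.71 with an adjusted p of 0.00011. For shRNA3 itself the log2 change was -3.03 without library 3 and -1.15 with library 3 alone, and both passed. The read-through gene AL121758.1 contains 84.7% of the 50-base stretches of SRXN1 on the same strand. It was listed at 0 counts in 10 of 12 libraries, with 13 counts in NC library 3 and 5 in shRNA1 library 2.

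Of the enzymes that reduce quinones and carbonyls, NQO1 and AKR1C1 rose with every shRNA. NQO1 (ENSG00000181019, chromosome 16, 69706996 to 69726951, minus strand), the quinone reductase most used as a readout of the pathway, was at 61.7, 67.1 and 62.9 CPM in NC. Levels were 156, 188 and 236 CPM with shRNA1, 179.6, 179 and 170.2 CPM with shRNA2, and 127, 129 and 180.2 CPM with shRNA3. The lowest shRNA library was thus above the highest NC library. NQO1 rose 3.02-fold with shRNA1 (log2 1.60, SE 0.18, adjusted p = 2.2e-05), 2.76-fold with shRNA2 (log2 1.46, SE 0.18, adjusted p = 4.1e-05) and 2.28-fold with shRNA3 (log2 1.19, SE 0.18, adjusted p = 0.00019). The shRNA3 value was 0.998 without library 3 and 1.52 with library 3 alone, and both passed. NQO1 passed in each of the 12 fits without 1 library, and its levels did not pass as different between any 2 of the shRNAs. AC092115.2, on the opposite strand, overlaps NQO1 and had 0 counts in all 12 libraries.

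AKR1C1 (ENSG00000187134, chromosome 10, 4963253 to 4983283, plus strand) reduces steroids and aldehydes. It was at 7.97, 8.75 and 6.08 CPM in NC, 35.7, 29.5 and 14.2 CPM with shRNA1, 30.1, 30.8 and 28.9 CPM with shRNA2, and 22.6, 20.8 and 31.5 CPM with shRNA3. No shRNA library overlapped NC, and shRNA1 library 3 was the lowest of them. The rise was 3.48-fold (log2 1.80, SE 0.31, adjusted p = 0.00047), 3.93-fold (log2 1.98, SE 0.31, adjusted p = 0.00027) and 3.29-fold (log2 1.72, SE 0.31, adjusted p = 0.0007) with shRNA1, shRNA2 and shRNA3. The shRNA3 log2 change was 1.51 without library 3 and 2.08 with library 3 alone, and both passed. AKR1C1 is uncertain as a single gene, because 28.7% of its 50-base stretches also occur in other genes, nearly all of them in AKR1C2, and the authors' counting could have split such reads. Its paralogues gave other values. AKR1C3 fell with all 3 shRNAs (log2 -2.05, -1.92 and -1.17), AKR1C2 rose with shRNA2 (log2 1.21, adjusted p = 0.0041) and had log2 changes of -0.32 and 0.50 with shRNA1 and shRNA3, and AKR1C4 had 0 counts in all 12 libraries. Without shRNA3 library 3 and with it alone, the shRNA3 values were -1.19 and -1.12 for AKR1C3, which both passed, and 0.43 and 0.65 for AKR1C2, which did not.

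AKR1B10 (ENSG00000198074, chromosome 7, 134527592 to 134541408, plus strand), which reduces retinal and other aldehydes, was the least counted member, with 8 to 70 counts per library. Its levels were 0.40, 0.49 and 0.81 CPM in NC, 1.79, 1.89 and 0.67 CPM with shRNA1, 1.17, 0.79 and 1.77 CPM with shRNA2, and 0.67, 1.67 and 3.47 CPM with shRNA3. One library of each shRNA fell within the NC range. AKR1B10 passed with shRNA3 (log2 1.78, SE 0.62, adjusted p = 0.030) and not with shRNA1 (1.34, adjusted p = 0.085) or shRNA2 (1.12, adjusted p = 0.15). Without shRNA3 library 3 the call was lost (log2 1.03, adjusted p = 0.12), while library 3 alone gave 2.63 (adjusted p = 0.0015). Its near neighbours moved the other way. AKR1B1 fell with all 3 shRNAs (log2 -1.02, -1.08 and -0.74, and with shRNA3 -0.60 without library 3 and -1.04 with it alone). In all, 17.7% of the 50-base stretches of AKR1B10 also occur in other genes, so its few reads could have been split too. AKR1B15, which shares 11.6% of the stretches of AKR1B10, had 43, 37 and 37 counts in NC and 1 in each shRNA1 library. It had 5, 2 and 2 counts with shRNA2 and 2, 1 and 13 with shRNA3. AKR1B15 passed as lower with each shRNA in all 12 fits that left out 1 library, with shRNA3 at log2 -4.07 to -2.16. Against a floor of 3 counts per library, AKR1B15 was at least 13.1-fold lower with shRNA1.

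HMOX1 (ENSG00000100292, chromosome 22, 35380361 to 35394214, plus strand), the inducible haem oxygenase, passed in no comparison with NC. It was at 16.2, 14.4 and 14.5 CPM in NC, 18.7, 18.004 and 9.08 CPM with shRNA1, 9.36, 9.41 and 9.63 CPM with shRNA2, and 15.6, 14.998 and 9.43 CPM with shRNA3. The shRNA2 libraries all lay below NC and agreed closely with each other. In shRNA1 and in shRNA3, library 3 alone was at that lower level. The log2 change with shRNA2 was -0.67 (SE 0.28, adjusted p = 0.064), and it passed without shRNA3 library 3 (-0.66, adjusted p = 0.012). Those of shRNA1 and shRNA3 were 0.02 (adjusted p = 0.95) and -0.18 (adjusted p = 0.61). For shRNA3 the value was 0.02 (adjusted p = 0.95) without library 3 and -0.65 (adjusted p = 0.10) with library 3 alone.

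**Figure D2:**
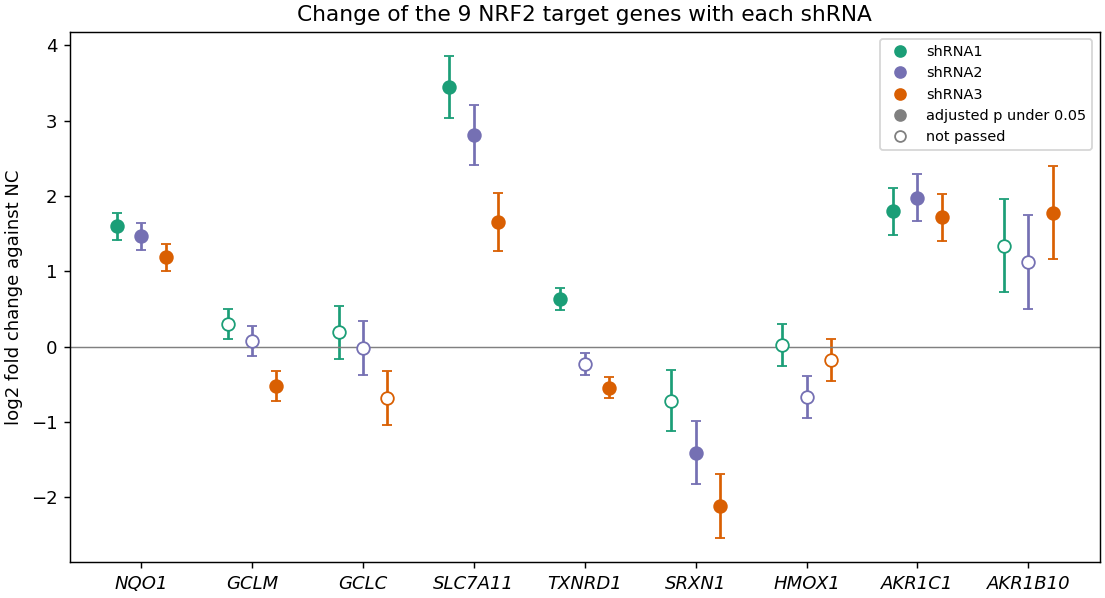
Log2 fold change against NC (vertical axis) of the 9 members with each shRNA, from edgeR over all 12 libraries. Bars are ± 1 SE, filled points passed at an adjusted p under 0.05 and open points did not. SLC7A11 shows the largest rise (3.45 with shRNA1), SRXN1 the largest fall (-2.12 with shRNA3), and TXNRD1 lies on opposite sides of 0 with shRNA1 and shRNA3.

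Levels per kilobase of merged exon give a rough order of the members. This length joins the exons of all transcripts, 6708 bases for TXNRD1 and 8646 for GCLC. Their longest coding transcripts have 4277 and 3813 bases, while SRXN1 has 2698 by either measure. The order, that of SRXN1 and TXNRD1 included, therefore depends on the length used. In NC, SRXN1 (85.7 CPM per kb) and TXNRD1 (81.5) stood first, followed by NQO1 (19.6), GCLM (9.24), HMOX1 (6.26), GCLC (5.69), SLC7A11 (1.60), AKR1C1 (0.87) and AKR1B10 (0.33). With shRNA1 the order was led by TXNRD1 (126), NQO1 (59.4) and SRXN1 (52.0), and SLC7A11 reached 17.5 CPM per kb. In shRNA2 and shRNA3, NQO1 stood at 54.2 and 44.7 CPM per kb, above SRXN1 at 32.3 and 19.7. In NC, the SRXN1 and TXNRD1 levels differed by less than the SD of the SRXN1 libraries on this scale. With shRNA1, the NQO1 and SRXN1 levels differed by less than the SD of either.

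The shRNAs differed from each other in 4 of the members. Between shRNA1 and shRNA2, 1 member passed, TXNRD1, as higher with shRNA1, where 12.3% of all genes passed (5.78% higher, 6.53% lower). Between shRNA1 and shRNA3, 4 passed, all higher with shRNA1, where 30% of all genes passed (11.9% higher, 18.1% lower). These were SLC7A11, TXNRD1, GCLM (log2 0.82, SE 0.20, adjusted p = 0.015) and SRXN1 (log2 1.40, SE 0.41, adjusted p = 0.029). With shRNA3 library 3 alone, the GCLM and SRXN1 differences were 0.37 (adjusted p = 0.22) and 0.44 (adjusted p = 0.14), so these 2 calls rest on libraries 1 and 2. Between shRNA2 and shRNA3, edgeR passed 0 members, where 8.34% of all genes passed (1.91% higher, 6.43% lower). In that comparison 3 of 9 members had an unadjusted p under 0.05, where 5592 of 17532 genes did. The DESeq2 Wald test passed 2 of 9 members, where 3793 of 16945 genes passed. Both counts are near the share over all genes.

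The split within shRNA3 ran through the members unevenly. Library 3 exceeded the mean of libraries 1 and 2 by 3.59-fold for SRXN1, 3.20-fold for SLC7A11, 2.87-fold for GCLC and 2.49-fold for AKR1B10, on the scale of log2(CPM + 0.5). These were 4 of 9 members at least 2-fold above, where 18.5% of all genes were, and 0 of 9 were at least 2-fold below, where 15.4% were. GCLM (1.63), AKR1C1 (1.44) and NQO1 (1.41) were moderately higher in library 3, TXNRD1 (0.98) was level, and HMOX1 (0.63) was lower. Set against the range spanned by the 6 libraries of shRNA1 and shRNA2, library 1 lay outside for 7 members, library 2 for 6 and library 3 for 4. Over the members, the calls for shRNA3 were 3 higher and 4 lower without library 3, where 73.1% of all genes passed (32.3% higher, 40.7% lower). With library 3 alone they were 4 higher and 2 lower, where 56.9% of all genes passed (28.1% higher, 28.8% lower). The members' total of 7 without library 3 is thus near the share over all genes.

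**Figure D3:**
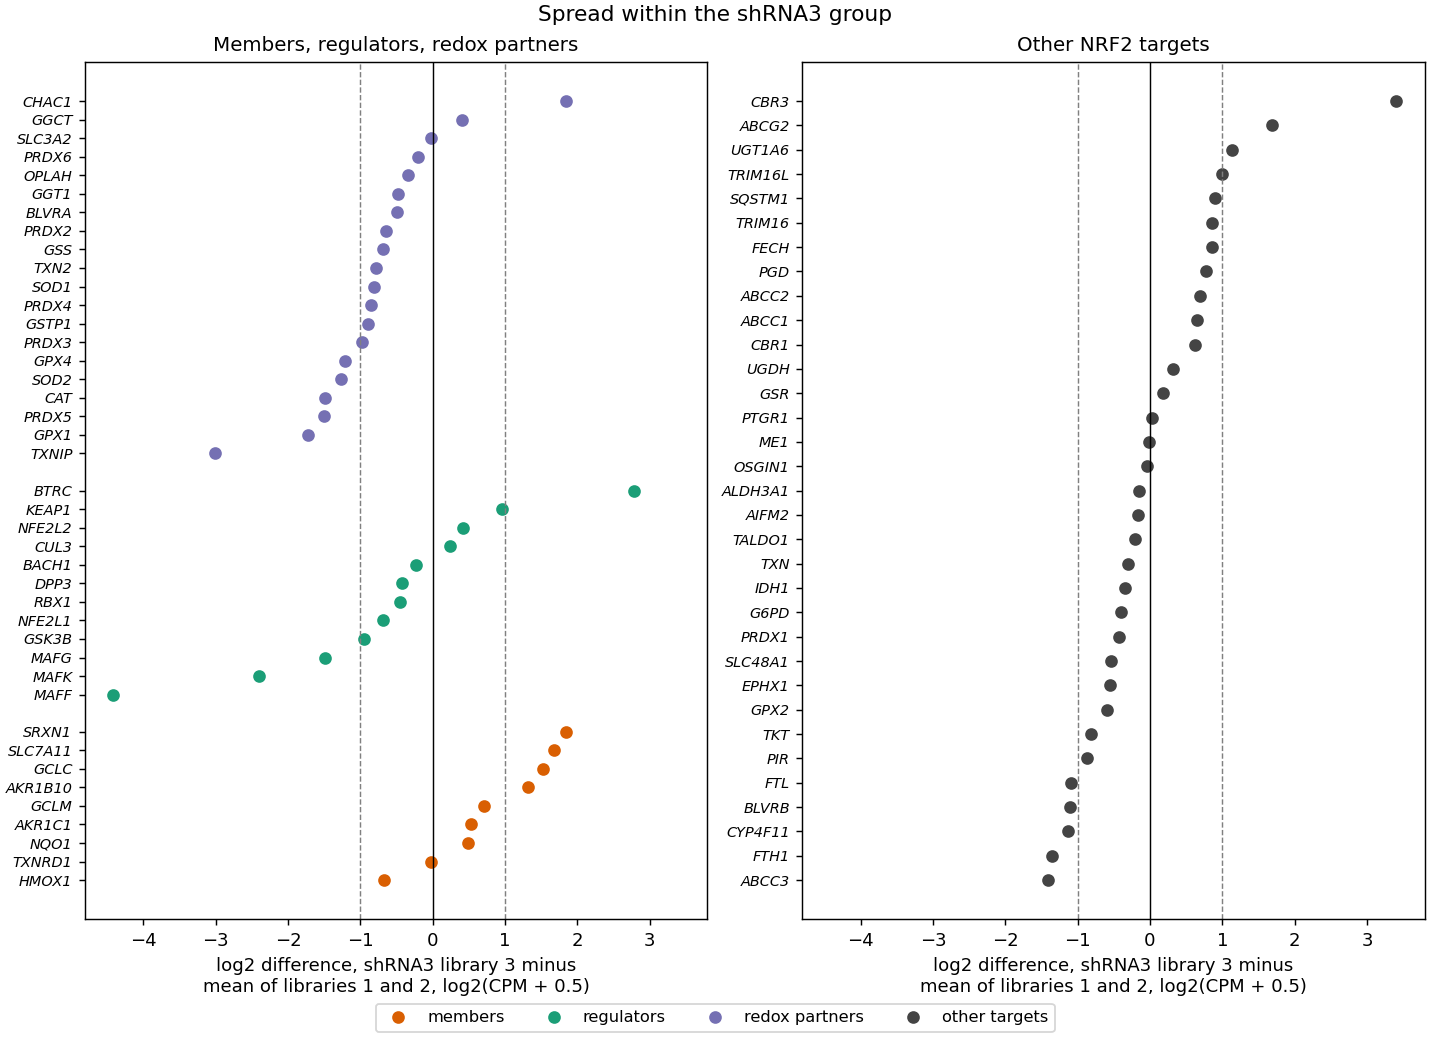
Difference between shRNA3 library 3 and the mean of libraries 1 and 2 (horizontal axis, log2(CPM + 0.5)) for the members, regulators and redox partners (left) and other NRF2 targets (right), 1 point per gene. Dashed lines mark a 2-fold difference. Of the members, SRXN1, SLC7A11, GCLC and AKR1B10 lie beyond 2-fold above, while the small MAF genes lie below 0.

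The regulators of the pathway were read next. NFE2L2, which encodes NRF2, was at 80.6, 83.9 and 80.4 CPM in NC, 57.8, 67.7 and 61.2 CPM with shRNA1, 53.9, 51.0 and 53.1 CPM with shRNA2, and 54.6, 49.9 and 70.0 CPM with shRNA3. All 9 shRNA libraries lay below all 3 NC libraries. NFE2L2 fell by 0.39 (adjusted p = 0.031), 0.63 (adjusted p = 0.0026) and 0.49 (adjusted p = 0.011) on the log2 scale with shRNA1, shRNA2 and shRNA3. The call with shRNA1 was kept in 4 of the 12 fits that left out 1 library, and the call with shRNA3 in 10. The shRNA3 value was -0.65 without library 3 and -0.19 (adjusted p = 0.21) with library 3 alone. Of the 12 regulators tested, 1 was higher (RBX1, log2 0.47) and 1 lower (NFE2L2, -0.50) for the mean of the 3 shRNAs. By shRNA, 1 was higher and 2 lower with shRNA1, 1 higher and 3 lower with shRNA2, and 4 higher and 2 lower with shRNA3. Over all genes, 60% passed for the mean, 57.4% with shRNA1, 53% with shRNA2 and 53.9% with shRNA3. The regulators' share was smaller in each, a difference that was not tested.

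The shRNA3 count depended on the libraries used, with 6 higher and 3 lower without library 3, where 73.1% of all genes passed, and 0 higher and 3 lower with library 3 alone, where 56.9% passed. KEAP1, the sensor that restrains NRF2, was at 43.3, 46.7 and 42.4 CPM in NC and at 22.5, 18.9 and 40.5 CPM with shRNA3. It passed as lower with shRNA3 (log2 -0.69, adjusted p = 0.027), a call kept in 6 of the 12 fits that left out 1 library. The value was -1.10 without library 3 and -0.09 with library 3 alone, and its changes with shRNA1 and shRNA2 were -0.17 and -0.09 and did not pass. BACH1, the repressor at these elements, rose with shRNA1 (log2 0.41, adjusted p = 0.049), fell with shRNA2 (-0.66, adjusted p = 0.0056) and was at 0.31 with shRNA3 (adjusted p = 0.13), or 0.38 (adjusted p = 0.029) without library 3 and 0.17 (adjusted p = 0.44) with library 3 alone. The BACH1 call with shRNA1 was lost under another scaling, the DESeq2 size factors (adjusted p = 0.067), and was kept in 5 of the 12 fits that left out 1 library. CUL3, the scaffold of the ligase, passed with none of the shRNAs (log2 0.29, -0.07 and -0.08, and with shRNA3 -0.17 without library 3 and 0.098 with it alone).

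The small MAF genes, partners of NRF2 that also bind without it, were split within shRNA3, with libraries 1 and 2 far above library 3. MAFF was at 74.4, 75.7 and 75.1 CPM in NC and at 552, 519.8 and 24.7 CPM with shRNA3. MAFK was at 208, 212 and 189 CPM in NC and at 618, 582 and 113 CPM with shRNA3, and MAFG was at 81.2, 74.7 and 68.6 CPM in NC and at 175, 184 and 63.6 CPM. In all 3 genes shRNA3 libraries 1 and 2 were above every other library and library 3 was below NC. Over the 3 libraries MAFF (log2 2.28, adjusted p = 0.020) and MAFG (0.91, adjusted p = 0.023) passed as higher and MAFK did not (1.11, adjusted p = 0.063). Of the 12 fits that left out 1 library, 7 kept the MAFF call and 8 the MAFG call. Without library 3 the values were 2.83 for MAFF, 1.26 for MAFG and 1.56 for MAFK, and all passed. With library 3 alone the values turned to -1.58 for MAFF (adjusted p = 4.2e-06), -0.21 for MAFG (adjusted p = 0.20) and -0.81 for MAFK (adjusted p = 0.014). MAFF was at 46.4, 42.6 and 35.6 CPM with shRNA1 and at 19.95, 18.4 and 19.9 CPM with shRNA2, all below NC. With shRNA2 its log2 change was -1.95 (adjusted p = 0.041). This call was lost with a replicate block (adjusted p = 0.051) and kept in 3 of the 12 fits that left out 1 library. Those 3 fits each left out a library of shRNA3, whose wide spread enters the shared estimate. With shRNA1 the log2 change of MAFF was -0.85 (adjusted p = 0.32) and did not pass. Without shRNA3 library 3 it was also -0.85 and passed (adjusted p = 1.5e-06).

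**Figure D4:**
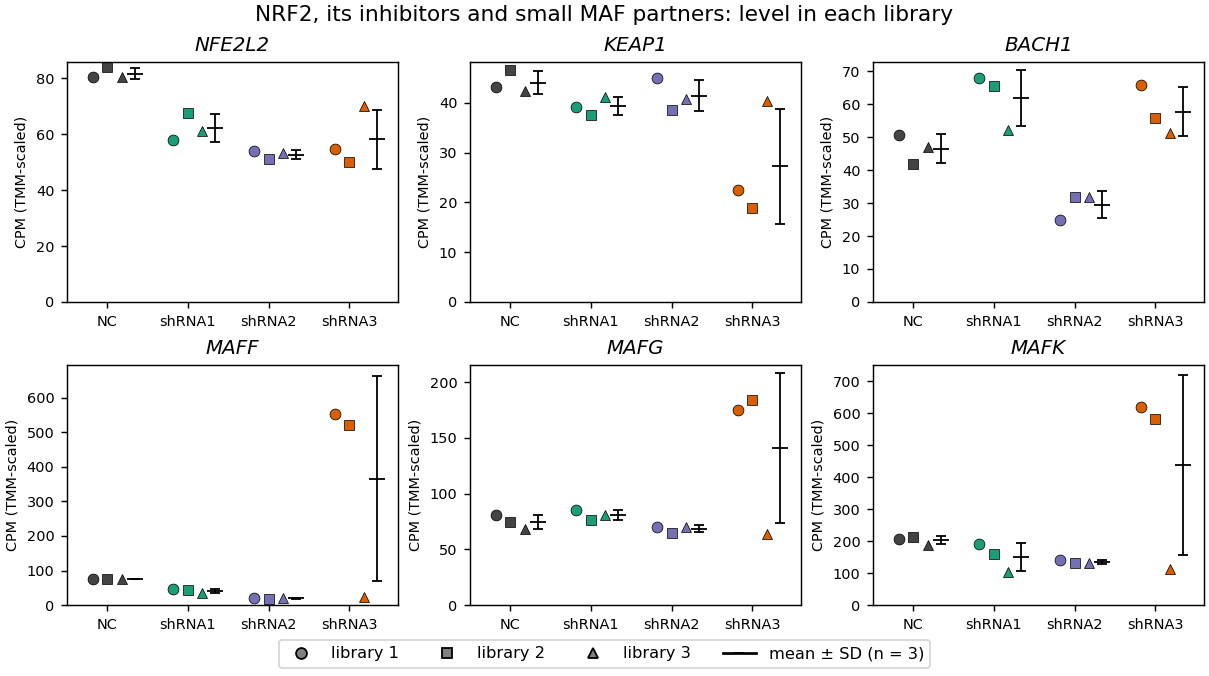
Level of NFE2L2, KEAP1, BACH1 and the small MAF genes MAFF, MAFG and MAFK (vertical axis, TMM-scaled CPM, starting at 0) in every library, with mean ± SD (n = 3). NFE2L2 is below NC in all 9 shRNA libraries, and for the small MAF genes shRNA3 libraries 1 and 2 stand above all others while library 3 does not.

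Other NRF2 targets, a list of 34 genes of which 33 were tested (CES1 was too low), passed in both directions. For the mean of the 3 shRNAs, 11 were higher (27.9% of all genes) and 5 lower (32.2% of all genes). With shRNA1, 8 were higher and 8 lower, with shRNA2 10 and 4, and with shRNA3 12 and 3, or 17 and 9 without library 3 (73.1% of all genes passed) and 11 and 8 with library 3 alone (56.9%). The list's median log2 change was 0.05, 0.16 and 0.26 with shRNA1, shRNA2 and shRNA3. Over all genes the medians were -0.02, -0.05 and -0.03, and 57.4%, 53% and 53.9% passed. All 3 shRNAs passed as higher for 6 of the 33 genes, near the 16% of all genes, and as lower for 3, where 19.7% of all genes did. ABCC2, an efflux pump for glutathione conjugates, was read at 0.66, 0.39 and 0.56 CPM in NC and at 74.4 to 142 CPM in the shRNA libraries (log2 7.60, 8.004 and 7.38). ABCG2, another efflux pump, rose by log2 3.71, 4.54 and 3.48, and ALDH3A1, an aldehyde dehydrogenase, by 2.26, 4.36 and 3.90. PTGR1, which reduces prostaglandin and alkenal double bonds, fell by 1.48, 1.71 and 1.44, and OSGIN1, an inhibitor of growth under oxidative stress, fell by 1.38, 2.03 and 2.04. GSR, the glutathione reductase, fell by 0.69, 0.46 and 0.70. These 6 passed with shRNA3 both without library 3 and with library 3 alone. Without it and with it alone, the log2 changes were 7.10 and 7.83 for ABCC2, 2.65 and 4.40 for ABCG2, and 3.95 and 3.82 for ALDH3A1. They were -1.45 and -1.40 for PTGR1, -2.03 and -2.05 for OSGIN1, and -0.76 and -0.55 for GSR.

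The redox partners, 20 enzymes and transporters working beside the members, counted 6 higher and 8 lower for the mean of the 3 shRNAs (27.9% and 32.2% of all genes). With shRNA1, 4 were higher and 10 lower, with shRNA2 6 and 8, and with shRNA3 7 and 3, or 11 and 4 without library 3 (73.1% of all genes passed) and 6 and 8 with library 3 alone (56.9%). Their median log2 change was -0.66, -0.16 and 0.24 with shRNA1, shRNA2 and shRNA3. Over all genes the medians were -0.02, -0.05 and -0.03, and 57.4%, 53% and 53.9% passed. GPX1, a glutathione peroxidase, rose by log2 2.34, 2.14 and 3.41, with levels of 111 to 116 CPM in NC and 463 to 1573 CPM in the shRNA libraries. The peroxiredoxins PRDX2 (log2 1.40, 1.84 and 2.25) and PRDX4 (1.13, 1.09 and 1.64), substrates of the thioredoxin system, rose with every shRNA, while SRXN1, which repairs peroxiredoxins, was lower in every shRNA library. Other peroxiredoxins did not all follow. Mean levels in NC, shRNA1, shRNA2 and shRNA3 were 233, 167, 220 and 282 CPM for PRDX3 and 419, 266, 267 and 487 CPM for PRDX5. Those of PRDX1 were 579, 637, 603 and 686 CPM, and those of PRDX6 were 143, 227, 264 and 296 CPM. In each of these, shRNA3 library 3 lay below libraries 1 and 2. CAT, the catalase gene, fell from 374 to 391 CPM in NC to 26.4 to 75.9 CPM (log2 -3.61, -2.78 and -2.71). GSTP1, a glutathione transferase, also fell with all 3 shRNAs (log2 -1.28, -0.86 and -0.72). BLVRA, which acts after haem oxygenase, passed as lower with all 3 (-1.30, -0.51 and -0.38), but with shRNA3 only narrowly (adjusted p = 0.0485). That shRNA3 call was lost with a replicate block (adjusted p = 0.051) or DESeq2 size factors (adjusted p = 0.053), and was kept in 2 of the 12 fits that left out 1 library. Without shRNA3 library 3 and with it alone, the shRNA3 log2 changes were 3.78 and 2.09 for GPX1, 2.43 and 1.81 for PRDX2, and 1.86 and 1.05 for PRDX4. They were -2.36 and -3.83 for CAT, -0.48 and -1.34 for GSTP1, and -0.24 and -0.71 for BLVRA, and these 6 genes passed in both settings.

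**Figure D5:**
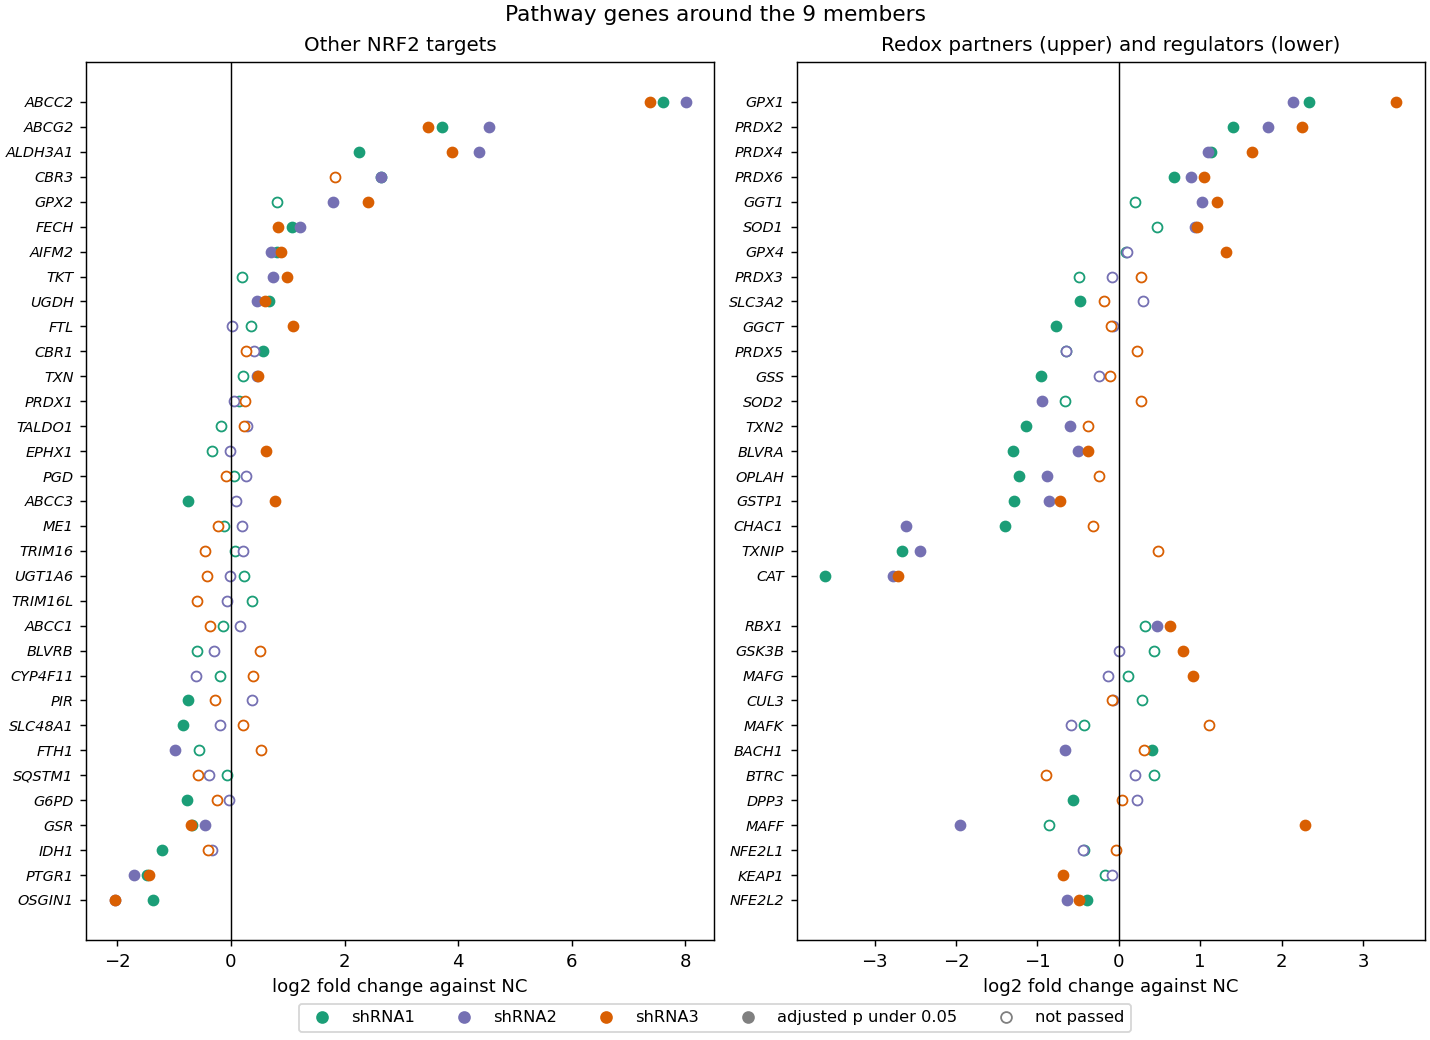
Log2 fold change against NC (horizontal axis) of other NRF2 targets (left), redox partners (upper right) and regulators (lower right) with each shRNA, 1 gene per line. Filled points passed at an adjusted p under 0.05 and open points did not. ABCC2 lies furthest to the right (8.004 with shRNA2) and CAT furthest to the left (-3.61 with shRNA1).

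How alike the members were in their pattern over the 12 libraries was measured as the root mean square difference of log2(CPM + 0.5), each gene centred on its own mean. Among the members the nearest pairs were GCLM with GCLC (0.31) and GCLM with TXNRD1 (0.34). Next came HMOX1 with TXNRD1 (0.44), GCLC with TXNRD1 (0.46) and NQO1 with AKR1C1 (0.47). The farthest pair was SLC7A11 with SRXN1 (1.76). Of 11384 other genes with a symbol and a mean of at least 5 CPM, those nearest to NQO1 were EZH2 (0.12) and ECHDC1 (0.13), and those nearest to SLC7A11 were GCNT2 (0.23) and ZIC5 (0.26). TUBB6 (0.18) and LRRC8E (0.19) were nearest to SRXN1, SPTY2D1 (0.16) and PICALM (0.16) to TXNRD1, and CAPN15 (0.24) and TELO2 (0.25) to AKR1C1. For GCLC they were CERK (0.11) and TAOK2 (0.11), for GCLM HACD2 (0.087) and TAB2 (0.11), and for HMOX1 B3GNT2 (0.094) and GDAP2 (0.12). AKR1B10, the lowest member, had no gene nearer than SLC43A2 (0.33) and CFAP298 (0.37). These distances rest on the same 12 libraries and describe them only.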

How the data were processed

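RNA was sequenced from 12 libraries of SCC-15 cells, 3 in each of 4 groups taken from the sample titles. The authors deposited 1 table of estimated counts per gene, of which 13.8% of values are not whole. HISAT2, HTSeq 0.11.2 and GRCh38 are named in the submitters' processing notes, with no role. Counts were rounded, scaled by TMM and filtered with filterByExpr (minimum count 10, total 15). They were tested two-sided with edgeR 4.0.16 (R 4.3.3), using the robust quasi-likelihood F test in 1 model of the 4 groups (8 residual degrees of freedom), adjusted by Benjamini-Hochberg over 17532 genes. CPM values are TMM-scaled. Symbols came from a gene name table, and positions and transcripts from GENCODE 29. The kit and the counting are not stated to use strand, so antisense reads cannot be told apart.

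The members and gene lists were chosen with earlier results of these data known. Besides the members, 5 paralogues and 7 regulators, the genes named were, per list, up to 3 rising and 3 falling with all 3 shRNAs, by their least change (mean of at least 1 CPM), and the 2 genes nearest to each member. RBX1, PRDX1, PRDX3, PRDX5, PRDX6, KRT5, KRT14, KRT6A, KRT17 and CDH1, the other single cell type markers, and overlapping genes, were named after their values were seen. On simulated data for shRNA1 against NC (16556 genes), the test recovered 27% of log2 changes of 1 and 74% of log2 changes of 2. It called 0.0245% of unchanged genes. Only 100 genes were changed at each size there, while 57.4% of genes passed with shRNA1 in the data. The adjustment is stricter when few genes change, so these rates do not describe recovery in the real comparisons. Alternatives were a replicate block, DESeq2 size factors, unscaled totals, other filters, the DESeq2 1.42.0 Wald test, only the groups compared, stricter thresholds, each library left out, and shRNA3 library 3 alone. List counts for shRNA3 without library 3 or with it alone were added after seeing the data. Counting depth was 17286934 to 19567192 per library, so for AKR1B10, at 8 to 70 counts, few reads set the precision. SE values derive from the quasi-likelihood test and so include the spread between libraries, while the floor of 3 counts covers counting error only.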

Additional observations from a re-analysis of the deposited data

Results flagged for a closer look

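The 5 results below are differences between shRNAs that passed in the test of the difference itself (edgeR, adjusted over all genes). TXNRD1 was higher with shRNA1 than with shRNA2 by 0.87 on the log2 scale (adjusted p = 0.0051), and every shRNA1 library lay above every shRNA2 library. It was higher with shRNA1 than with shRNA3 by 1.18 (adjusted p = 0.0021), again without overlap. SLC7A11 was higher with shRNA1 than with shRNA3 by 1.79 (adjusted p = 0.0094), GCLM by 0.82 (adjusted p = 0.015) and SRXN1 by 1.40 (adjusted p = 0.029). With shRNA3 library 3 alone, the differences were 0.89 for SLC7A11 (adjusted p = 0.0052), 0.37 for GCLM (adjusted p = 0.22) and 0.44 for SRXN1 (adjusted p = 0.14). In the fits of only the libraries of shRNA1 and shRNA3, 0 genes of the table passed, members included. The groups held 3 libraries each, so single libraries were not tested for standing apart.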

How the results depend on the processing

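Of the members' calls against NC, those of NQO1, SLC7A11 and AKR1C1 with each shRNA passed in all 12 fits that left out 1 library, as did SRXN1 with shRNA2 and shRNA3 and TXNRD1 with shRNA1 and shRNA3. GCLM and AKR1B10 with shRNA3 did not. AKR1B10 with shRNA3 also missed the threshold with a replicate block (log2 1.69, adjusted p = 0.051), and its call for the mean of the 3 shRNAs was kept in 5 of the 12 fits. Replicate numbers are shared across groups, but same-numbered libraries deviated together no more than others (mean correlation -0.0086 against 0.0036), and 2 of 12 libraries correlated best with their own number, so the block was not used. With the block, 3 members were higher and 3 lower with shRNA3, where 4325 and 4791 of 17532 genes were.

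Without TMM the median of all genes shifted to -0.10, -0.18 and -0.35 for shRNA1, shRNA2 and shRNA3. Members lower with shRNA2 numbered 1, where 4978 of 17532 genes were lower. They numbered 2 without TMM (5456 of 17532 genes), at a mean of at least 50 counts (3542 of 12917) and by the DESeq2 Wald test (5436 of 17285). In fits of only the groups compared they numbered 3 (6921 of 16736 genes), and at an adjusted p under 0.01 they numbered 0 (3834 of 17532). Regulators lower for the mean of the shRNAs were 3 without TMM (6416 of 17532 genes). At a log2 change of at least 1 the regulators numbered 0 higher and 0 lower, other targets 6 and 2, and redox partners 3 and 3. Of all 17532 genes, 2952 were then higher and 4038 lower. In fits of only the groups compared, 1 member was lower with shRNA1 (6360 of 16931 genes) and 1 with shRNA3 (3676 of 16688). In such fits 3 members were higher with shRNA1 than shRNA2 (3147 of 15256 genes) and 0 than shRNA3 (0 of 15326). The DESeq2 Wald test passed 2 members higher with shRNA2 than shRNA3 (1101 of 16945 genes). At an adjusted p under 0.01, 2 members were higher with shRNA1 than shRNA3 (319 of 17532 genes). At a log2 change of at least 1, 1 member was lower with shRNA3 (3753 of 17532 genes) and 0 were higher with shRNA1 than shRNA2 (428). With shRNA3 library 3 alone, 1 member was lower with shRNA1, regulators numbered 3 higher and 4 lower, other targets 10 lower, and 4 members were higher with shRNA1 than shRNA2 and 2 than shRNA3. The counts with shRNA3 library 3 alone come from a fit with 1 library in that group and stand here without the share over all genes. They are therefore not read as high or low. The number of all genes passing also changed between settings, so a changed count is not by itself a result about the members or lists. The causes were not tested.

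Leaving out 1 library gave 0 to 1 members lower with shRNA1, 1 to 2 with shRNA2, and 1 to 2 for the mean. Higher with shRNA1 were 1 to 4 against shRNA2 and 2 to 6 against shRNA3. Between shRNA2 and shRNA3, 0 to 6 were higher and 0 to 1 lower, the 6 without shRNA3 library 3. Regulators ranged from 1 to 3 higher and 1 to 4 lower, and other targets from 4 to 8 lower. Over all genes, 10800 of 18242 passed between shRNA2 and shRNA3 without shRNA3 library 3 (5606 higher), beside 1462 with it, 3793 by the DESeq2 Wald test and 378 with the block. Without that library, 6881 genes were lower with shRNA1, 6709 with shRNA2 and 7400 for the mean, beside 5363, 4978 and 5638 with it. Higher with shRNA1 were then 3731 genes against shRNA2 and 5910 against shRNA3, beside 1014 and 2080.

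For the small MAF genes, the shRNA3 log2 changes turned from above to below 0 with shRNA3 library 3 alone. They went from 2.28 to -1.58 for MAFF, from 0.91 to -0.21 for MAFG and from 1.11 to -0.81 for MAFK. Among the members, direction changed in 39 values, all below 0.32 in size after the change, none past the threshold before or after. HMOX1 with shRNA1 was -0.031 with the block, -0.0047 with DESeq2 size factors, -0.062 without TMM, -0.073 at a mean of at least 50 counts and -0.0045 by the DESeq2 Wald test, and -0.14 to 0.29 leaving out 1 library. GCLM with shRNA2 was -0.066 without TMM, -0.018 at a mean of at least 50 counts, and -0.0018 to 0.19 leaving out 1 library. GCLC with shRNA2 was 0.022 with no filter and -0.037 to 0.062 leaving out 1 library. For the mean of the shRNAs, those fits gave -0.14 to 0.061 for GCLM and -0.081 to 0.0017 for TXNRD1, and for HMOX1 with shRNA3 -0.24 to 0.018. Between shRNA1 and shRNA2 they gave -0.024 to 0.56 for AKR1B10, -0.45 to 0.12 for AKR1C1 and -0.038 to 0.27 for NQO1. AKR1B10 ranged from -0.87 to 0.32 between shRNA1 and shRNA3 and from -1.08 to 0.10 between shRNA2 and shRNA3, and AKR1C1 from -0.19 to 0.39 between shRNA1 and shRNA3. With shRNA3 library 3 alone, GCLC with shRNA3 was 0.17, the mean of the shRNAs 0.11 for GCLM and 0.12 for GCLC, and AKR1C1 between shRNA1 and shRNA3 -0.27. Between shRNA2 and shRNA3 the same setting gave -0.044 for NQO1, -0.18 for GCLC, -0.25 for SRXN1 and -0.086 for AKR1C1.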
